A study of Mus musculus with 2 samples.

Results

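Checkpoint receptors and their ligands were followed here as 10 genes taken by symbol out of the 32285 genes in the expression matrices: the receptors Pdcd1, Ctla4, Lag3, Havcr2 and Tigit, the ligands Cd274, Pdcd1lg2, Cd80 and Cd86, and Tox, a nuclear factor of chronically stimulated T cells. All 10 genes were found in the matrices and all 10 had unique molecular identifiers (UMIs, each a tagged transcript copy) in both libraries. Among the 25652 cells kept, a UMI of Pdcd1lg2 was found in 5.78% and a UMI of Tox in 22.2%, with the other 8 genes between these shares.

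Checkpoint receptors are membrane proteins that dampen the response of an activated lymphocyte when a neighbouring cell presents their ligand. Pdcd1 encodes PD-1, which binds PD-L1 (Cd274) and PD-L2 (Pdcd1lg2). Ctla4 encodes a receptor that competes with the costimulatory receptor Cd28 for Cd80 and Cd86 on antigen-presenting cells, and regulatory T cells (Tregs) carry it constitutively. Lag3 binds major histocompatibility complex class II, Havcr2 encodes TIM-3, and Tigit binds nectin-family ligands that the activating receptor Cd226 also binds. Tox sustains the program known as exhaustion, in which T cells under lasting antigen exposure keep several of these receptors. In tumors of the nervous system the ligands are typically looked for on myeloid cells and on the tumor cells themselves.

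The cells came from optic nerves of NF1-OPG mice, a model of neurofibromatosis type 1 optic pathway glioma, in 2 droplet single-cell libraries, C-ON and FMC_new. Per the study's methods, these mice carry Nf1 flox/mut with GFAP-Cre on a C57BL/6 background. Which of the cells had lost the floxed Nf1 copy was not tested. Each library was a pool of nerves from 10 mice aged 12 weeks, and the labels give both libraries the same genotype and tissue. Both titles name the optic nerve, that of C-ON also carries the word control and that of FMC_new the word new, and no label says what these words mark, so no library was compared with the other and the 2 libraries served as replicates of a single group. The labels also describe dura suspensions sorted alive and enrichment of T cell receptor transcripts, without saying which library they concern.

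C-ON held 8834 kept cells at a median of 6811 UMIs and FMC_new 16818 at a median of 4676. The libraries differed in makeup, with oligodendrocyte-like cells forming 60.8% of C-ON and 12.3% of FMC_new. The pituitary hormone transcript Gh was found in 99.3% to 100% of the cells of each class of at least 20 cells in FMC_new and in at most 0.437% of those in C-ON, so that free pituitary RNA reached nearly all FMC_new droplets. A barcode was shared by kept cells of both libraries in 188 cases. Shares of cells are therefore given beside the share in oligodendrocyte-like cells, a class not known for the receptors, whose median depth was 8043 UMIs in C-ON and 7835 in FMC_new. Levels are given as CPM, in which the summed UMIs of a class in a library are brought to a common total. The 95% intervals, exact Poisson for CPM and exact Clopper-Pearson for shares, cover counting error only.

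Classes were named from marker genes, and those of oligodendrocytes and a tumor fitted the labelled tissue, a nerve. FMC_new also held 225 pituitary endocrine-like cells, a class outside that label, against 19 in C-ON. Unnamed clusters with Pomc and Tbx19 (605 and 542 cells of FMC_new) or Gh and Pou1f1 (357 cells) among their leading genes held 0, 1 and 0 cells of C-ON. Oligodendrocyte markers summed to 66727 CPM in the oligodendrocyte-like cells of C-ON and 59421 CPM in those of FMC_new. The 7 markers of the glioma, which resembles oligodendrocyte precursors, summed to 8690 CPM in C-ON and 8155 CPM in FMC_new in the glioma-like class, against 34.7 CPM and 48.2 CPM in oligodendrocyte-like cells. No separate list was used for normal oligodendrocyte precursors and both libraries carry the NF1-OPG genotype. The glioma-like class may therefore include normal precursors, and its values are not those of tumor cells alone. CD8 T cell-like cells numbered 420 in C-ON and 1366 in FMC_new, conventional CD4 T cell-like cells 255 and 863, Treg-like cells 118 and 562, and natural killer (NK) cell-like cells 99 and 269. Among antigen-presenting cells there were 80 and 270 type 1 dendritic cell (cDC1)-like cells, 162 and 732 type 2 dendritic cell (cDC2)-like cells, 26 and 72 migratory dendritic cell-like cells, 178 and 1365 microglia-like cells, and 229 and 747 C1q macrophage-like cells. The glioma-like class held 214 and 1395 cells. A further 833 cells of C-ON and 4166 of FMC_new stayed unnamed.

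The 2 PD-1 ligand genes are neighbors, and they are shown first because both reached their highest level in the same class. In the GRCm38 annotation Cd274 lies at chr19:29367455-29388095 and Pdcd1lg2 at chr19:29410919-29471161, both on the + strand, with 22823 bases between them. The RefSeq promoter windows of build GRCm38.p6 held 7 of the 10 genes, and the 250 bases before the annotated start are printed for these neighbors, at chr19:29367188-29367437 for Cd274 and chr19:29410669-29410918 for Pdcd1lg2. Capitals mark GAAAC or its reverse complement, the half-site read by interferon regulatory factors, a motif picked once the windows had been read.
Cd274: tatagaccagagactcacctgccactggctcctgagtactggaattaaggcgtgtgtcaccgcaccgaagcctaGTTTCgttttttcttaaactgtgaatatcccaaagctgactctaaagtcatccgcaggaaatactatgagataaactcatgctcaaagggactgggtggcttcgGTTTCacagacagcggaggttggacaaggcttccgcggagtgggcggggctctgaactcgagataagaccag
Pdcd1lg2: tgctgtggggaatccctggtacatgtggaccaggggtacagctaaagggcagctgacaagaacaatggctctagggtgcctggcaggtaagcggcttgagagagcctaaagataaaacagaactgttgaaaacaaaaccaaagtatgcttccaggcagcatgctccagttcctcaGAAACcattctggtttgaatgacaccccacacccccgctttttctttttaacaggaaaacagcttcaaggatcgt
The Cd274 window held 2 matches to GAAAC and the Pdcd1lg2 window 1, on either strand, and 39.7% of 32851 windows of the same length held at least 1. The longer motifs of the interferon-stimulated response element core (held by 2.98% of windows), the gamma-activated site TTCNNNGAA (7.02%) and NF-kappaB (1.41%) were in none of the 7 windows on either strand.

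Pdcd1 was highest in CD8 T cell-like cells in both libraries. Its level was 670 CPM (630 to 712) in C-ON and 652 CPM (630 to 674) in FMC_new, and 55.5% and 62.3% of the cells carried a UMI, against 0.242% and 0.628% of oligodendrocyte-like cells. Treg-like cells followed at 328 CPM in C-ON and 329 CPM in FMC_new, and conventional CD4 T cell-like cells at 220 CPM and 269 CPM. Below the leader the libraries gave different orders: in C-ON the gamma-delta T cell-like cells stood second at 424 CPM (302 to 580, 29 cells), and in FMC_new the type 2 innate lymphoid cell (ILC2)-like cells at 568 CPM (487 to 660, 71 cells), an interval that overlapped that of the CD8 class. The same ILC2-like class was at 149 CPM (71.7 to 275) in C-ON, where it held 23 cells, and the gamma-delta T cell-like class was at 140 CPM (90.6 to 207) in FMC_new, so that neither position was shared by both libraries. NK cell-like cells were low, at 68.1 CPM and 53.9 CPM.

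Ctla4 was highest in Treg-like cells, where 94.9% of C-ON cells (112 of 118) and 92.9% of FMC_new cells (522 of 562) carried a UMI, against 0.447% and 2.08% of oligodendrocyte-like cells. The level was 2454 CPM in C-ON and 2316 CPM in FMC_new. Conventional CD4 T cell-like cells were next at 684 CPM and 946 CPM, and CD8 T cell-like cells were at 411 CPM and 442 CPM. The Poisson intervals of the first and second class did not overlap in either library. After every cell was thinned to 1000 UMIs, a UMI of Ctla4 remained in 84.0% and 80.5% of Treg-like cells and in 40.2% and 44.2% of conventional CD4 T cell-like cells.

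Plasma cell-like cells, the antibody-secreting stage of B cells, also carried Ctla4 UMIs, in 27.5% of C-ON cells and 25.8% of FMC_new cells, although at 85.0 CPM and 65.0 CPM. These cells were deep, with median UMI counts of 10597 and 11831, and after thinning the share was 5.11% and 6.41%. The 7 T cell markers summed to 104 CPM and 121 CPM in plasma cell-like cells, against 4507 CPM and 4993 CPM in CD8 T cell-like cells and 7.83 CPM and 21.5 CPM in oligodendrocyte-like cells, and 3 of the 7 were in at least 10% of plasma cell-like cells in each library. Their part in the Ctla4 signal was not tested.

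Tigit followed the T and NK cell classes. Treg-like cells were highest at 744 CPM (657 to 839) in C-ON and 756 CPM (717 to 798) in FMC_new, CD8 T cell-like cells were second at 529 CPM and 543 CPM, and conventional CD4 T cell-like cells next at 297 CPM and 401 CPM. NK cell-like cells were at 279 CPM and 274 CPM, which overlapped the conventional CD4 class in C-ON and lay below it in FMC_new. Microglia-like cells were at 0.973 CPM (1 of 178 cells) and 3.94 CPM, close to the 0.650 CPM and 3.41 CPM of oligodendrocyte-like cells.

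Lag3 was highest in microglia-like cells rather than in a T cell class. The resident macrophages of the nerve stood at 586 CPM (540 to 634) in C-ON and 432 CPM (417 to 447) in FMC_new, and a UMI was found in 64.0% and 64.2% of them. Treg-like cells were at 317 CPM and 238 CPM and CD8 T cell-like cells at 283 CPM and 263 CPM, with intervals that overlapped each other in both libraries and lay below that of microglia-like cells. After thinning to 1000 UMIs, over both libraries, the share was 30.1% in microglia-like cells and 2.30% in C1q macrophage-like cells. Other macrophages were low: C1q macrophage-like cells were at 14.9 CPM and 43.0 CPM, and border-associated macrophage-like cells at 4.54 CPM and 5.35 CPM. Oligodendrocyte-like cells carried a Lag3 UMI in 0.354% and 1.11%, and gamma-delta T cell-like cells in 0 of 29 and 0 of 50. A UMI was also found in 28 of 47 plasmacytoid dendritic cell-like cells of FMC_new, at 175 CPM (132 to 227), a class that held only 3 cells in C-ON. The microglia-like class held 37.8% of all Lag3 UMIs of C-ON and 42.2% of those of FMC_new, against 28.1% and 19.6% in CD8 T cell-like cells.

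**Figure D1:**
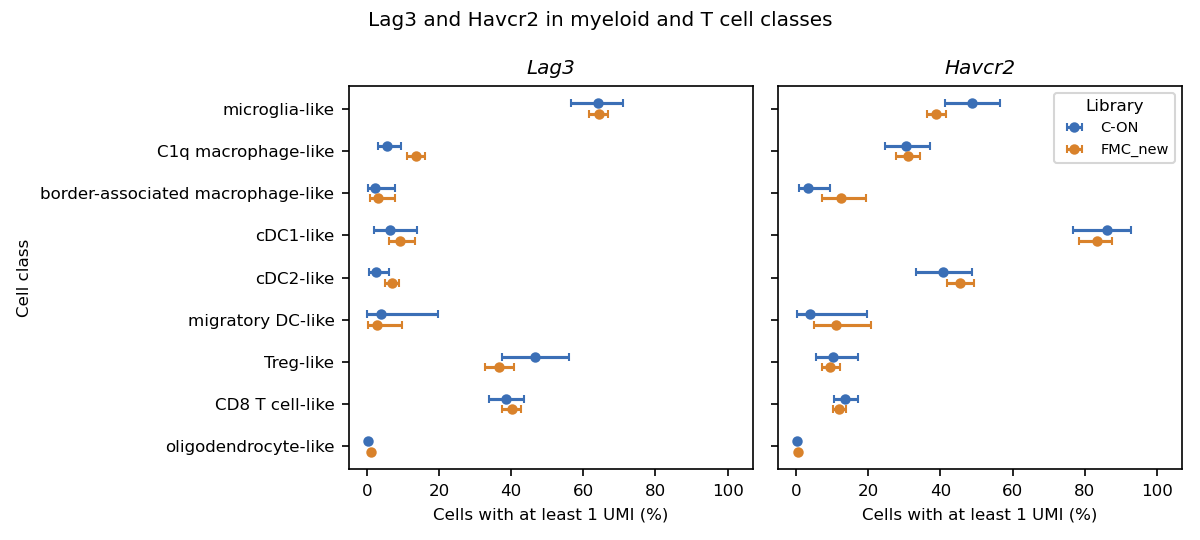
Share of cells (%, horizontal axis) with at least 1 UMI of Lag3 (left) and Havcr2 (right) in myeloid and T cell classes (vertical axis), for each library, with exact 95% binomial intervals as bars. Lag3 sits at 64.0% and 64.2% in microglia-like cells and at 13.5% or less in C1q macrophage-like cells, and Havcr2 is highest in cDC1-like cells, at 86.2% and 83.3%.

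Havcr2 was highest in dendritic and microglia-like cells, not in T cells. cDC1-like cells, which specialize in cross-presentation to CD8 T cells, stood first at 306 CPM (269 to 346) in C-ON and 310 CPM (290 to 331) in FMC_new, with a UMI in 86.2% and 83.3% of cells against 0.149% and 0.386% of oligodendrocyte-like cells. Microglia-like cells were at 131 CPM and 135 CPM, cDC2-like cells at 101 CPM and 119 CPM, and C1q macrophage-like cells at 90.2 CPM and 98.2 CPM. The T cell classes were lower, with CD8 T cell-like cells at 55.0 CPM and 50.3 CPM and Treg-like cells at 39.3 CPM and 43.2 CPM. Conventional CD4 T cell-like cells were at 8.24 CPM (4 of 255 cells) and 5.69 CPM (12 of 863 cells). The cDC1-like cells were deep, and after thinning the shares were 26.0% in cDC1-like and 10.7% in microglia-like cells over both libraries.

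Tox had no single leading class. In FMC_new the Treg-like cells were highest at 917 CPM (873 to 963), above the CD8 T cell-like cells at 792 CPM (768 to 816), whereas in C-ON the T cell-like cells whose subset the markers did not resolve were highest at 892 CPM (752 to 1052) and overlapped the Treg-like cells at 691 CPM. NK cell-like cells were at 418 CPM and 426 CPM. Outside the lymphocytes, glioma-like cells carried a Tox UMI in 37.4% (80 of 214) and 35.3% (493 of 1395), at 103 CPM (86.0 to 122) and 105 CPM (98.1 to 113). Oligodendrocyte-like cells, at a greater depth, carried one in 9.35% and 8.59%, at 14.7 CPM and 14.4 CPM. After thinning, over both libraries, the shares were 9.54% and 1.37%. The 7 T cell markers summed to 59.1 CPM and 171 CPM in glioma-like cells, and 0 of the 7 in C-ON and 2 of the 7 in FMC_new were in at least 10% of these cells. Their part in the Tox signal was not tested.

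**Figure D2:**
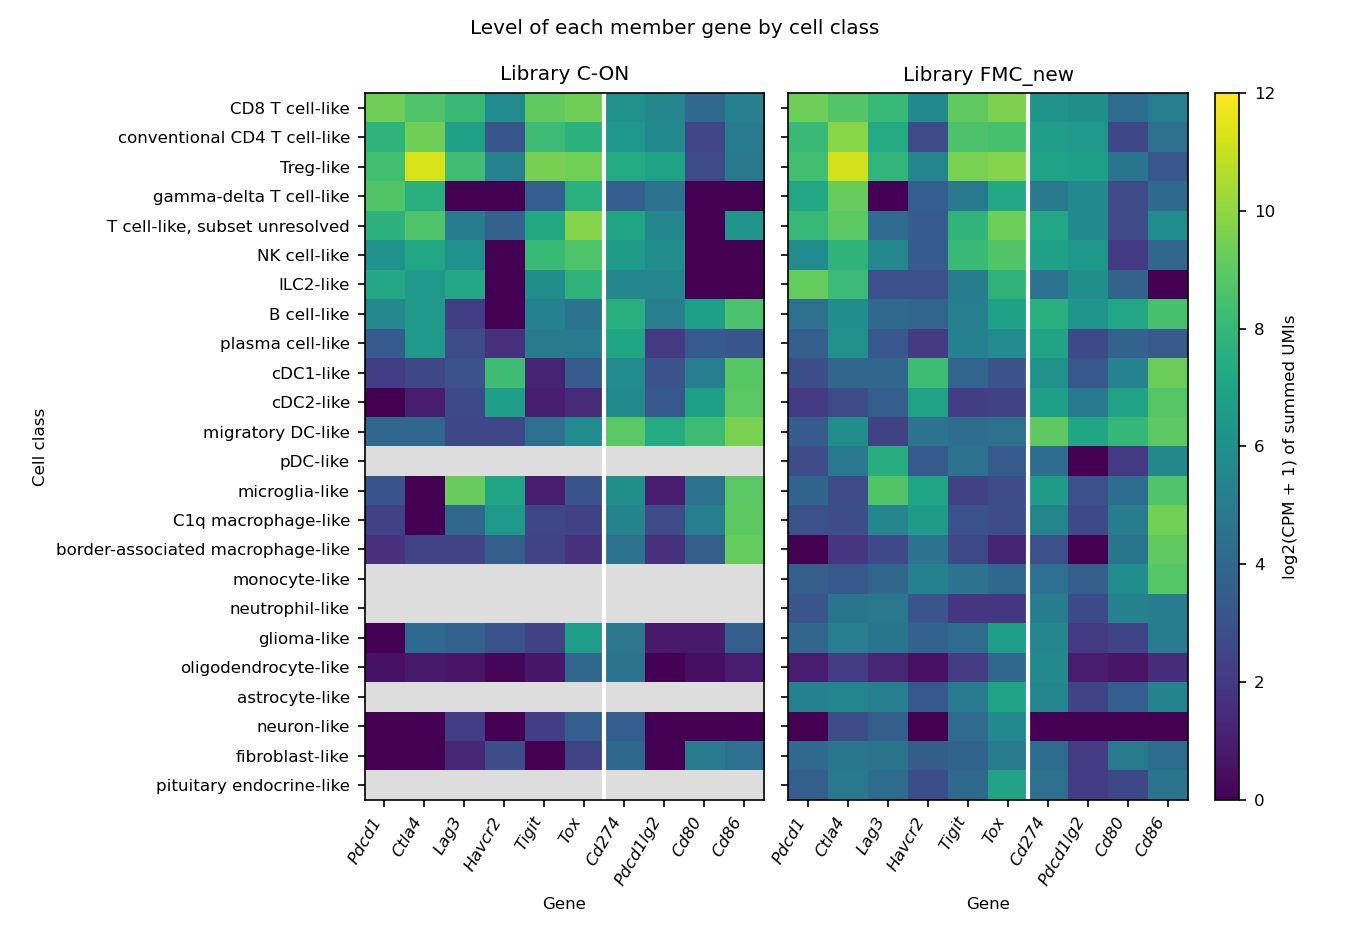
Level of the 10 genes (horizontal axis) in each cell class (vertical axis) of library C-ON (left) and FMC_new (right), colored by log2(CPM + 1) of the summed UMIs. Brighter cells are higher, and grey marks a class with under 20 cells in that library. The T cell classes are bright for Pdcd1, Ctla4, Tigit and Tox, whereas Lag3 is brightest in microglia-like cells (586 CPM and 432 CPM) and Cd274 peaks in migratory dendritic cell-like cells (482 CPM and 517 CPM).

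Among the ligands, Cd274 was highest in migratory dendritic cell-like cells, the mature dendritic cells on their way to lymph nodes. The level was 482 CPM (391 to 588) in C-ON and 517 CPM (455 to 585) in FMC_new, with a UMI in 18 of 26 and 52 of 72 cells. B cell-like cells followed at 187 CPM and 184 CPM, and plasma cell-like cells were at 134 CPM and 127 CPM with a UMI in 45.0% and 43.1% of cells. T cell classes carried Cd274 as well, Treg-like cells at 163 CPM and 118 CPM and CD8 T cell-like cells at 64.5 CPM and 73.7 CPM. Glioma-like cells were at 26.4 CPM (18.1 to 37.0) and 45.9 CPM (41.2 to 50.9), with a UMI in 8.88% and 14.3% of cells. These glioma values lay next to those of oligodendrocyte-like cells, at 23.8 CPM (22.4 to 25.2) and 50.1 CPM (46.7 to 53.5), which do not serve as a background for this gene since their clusters differed widely, as given further on.

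Pdcd1lg2 was also highest in migratory dendritic cell-like cells, at 164 CPM (113 to 230) and 135 CPM (104 to 172). Treg-like cells were second in both libraries at 118 CPM (85.0 to 159) and 108 CPM (93.6 to 125), and these intervals overlapped those of the leading class. Microglia-like cells were at 0.973 CPM and 6.61 CPM and glioma-like cells at 0.799 CPM (1 of 214 cells) and 3.13 CPM, against 0.0217 CPM and 0.882 CPM in oligodendrocyte-like cells. Summed over the classes, CD8 T cell-like cells held 22.3% of the Pdcd1lg2 UMIs of C-ON and 19.1% of those of FMC_new.

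Cd80 and Cd86, the ligands shared by Ctla4 and Cd28, divided differently among antigen-presenting cells. Cd80 was highest in migratory dendritic cell-like cells at 303 CPM (232 to 389) and 251 CPM (209 to 300), with B cell-like cells (108 CPM and 142 CPM) and cDC2-like cells (108 CPM and 121 CPM) behind them. Cd86 was broad: in C-ON migratory dendritic cell-like cells were at 765 CPM (649 to 895) and border-associated macrophage-like cells at 572 CPM (504 to 648), whereas in FMC_new C1q macrophage-like cells were highest at 706 CPM (677 to 735) and migratory dendritic cell-like cells were at 511 CPM (449 to 578). cDC1-like cells carried a Cd86 UMI in 95.0% and 94.8%, B cell-like cells in 62.5% and 60.9%, and microglia-like cells in 61.8% and 60.8%. Oligodendrocyte-like cells carried one in 0.782% and 1.21%. In glioma-like cells Cd80 was found in 1 of 214 and 26 of 1395 cells, and Cd86 in 4 of 214 and 112 of 1395 cells.

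**Figure D3:**
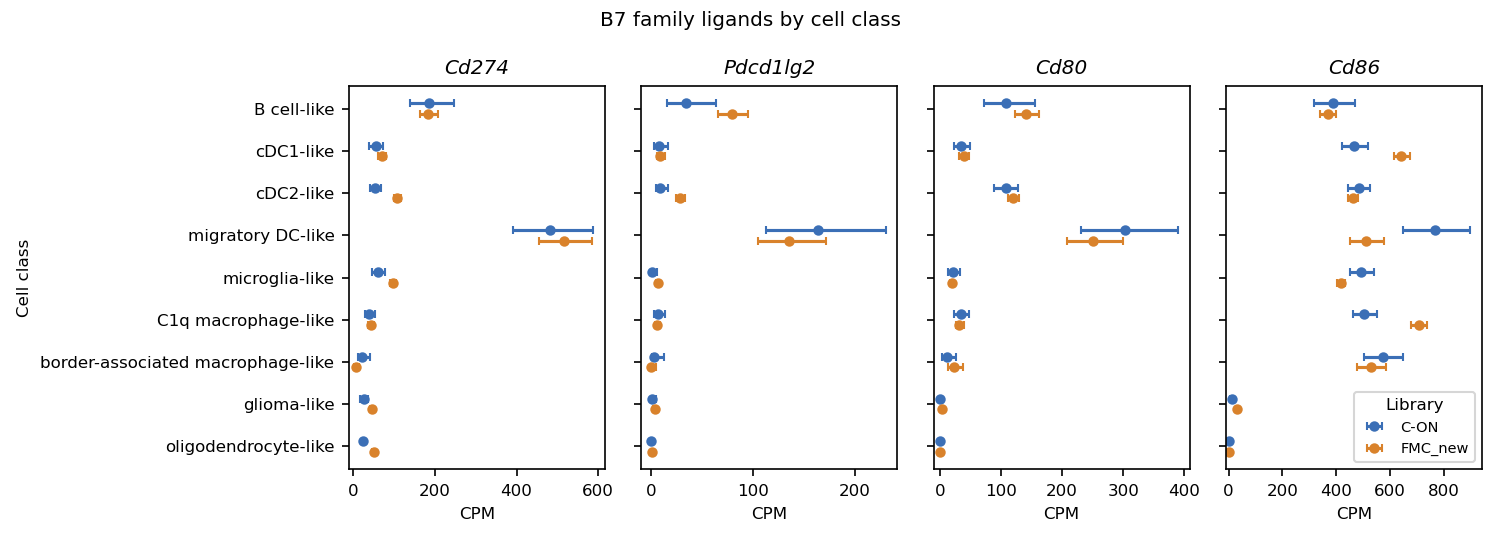
Level in CPM (horizontal axis, from 0) of the 4 ligand genes in the cell classes (vertical axis) of each library, with exact 95% Poisson intervals as bars. Migratory dendritic cell-like cells are highest for Cd274, Pdcd1lg2 and Cd80, whereas for Cd86 several myeloid classes lie between 417 CPM and 765 CPM.

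The CD8 T cell-like class was not uniform, and its 5 sub-clusters are described here by their leading gene, without a test, since the same cells defined them. In the Gzmk-led sub-cluster (204 cells of C-ON and 576 of FMC_new), named for a granzyme of memory-like CD8 cells, Pdcd1 was found in 24.5% and 27.8%, Lag3 in 7.84% and 7.64% and Havcr2 in 2.94% and 2.60%. The Ifit1-led sub-cluster (34 and 74 cells), with interferon-stimulated genes among its leading genes, was similarly low, with Pdcd1 in 32.4% and 33.8% and Lag3 in 5.88% and 13.5%. The other 3 sub-clusters carried Pdcd1 in at least 90.6% of cells.

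These 3 sub-clusters differed in Havcr2 and in memory factors. In the Xcl1-led sub-cluster (42 and 192 cells), Pdcd1 was found in 97.6% and 93.8%, Lag3 in 90.5% and 77.6%, Tigit in 97.6% and 91.7% and Tox in 95.2% and 95.3%, but Havcr2 only in 4.76% and 2.60%. Tcf7, the factor that keeps memory-like cells able to renew, was found there in 45.2% and 39.6%, and its partner marker Slamf6 in 35.7% and 38.5%. In the Gm156-led sub-cluster (124 and 418 cells), Pdcd1 was found in 93.5% and 93.3% and Tox in 86.3% and 84.7%, Havcr2 in 35.5% and 26.1%, and Tcf7 in 3.23% and 8.13%. Entpd1, which encodes the ectonucleotidase CD39 of terminally exhausted cells, was found in 39.5% and 28.2% of the Gm156-led cells and in 11.9% and 4.17% of the Xcl1-led cells. The Xcl1-led cells were the deeper of the pair, with a median of 5199 UMIs against 3346. The Atp2b2-led sub-cluster (16 and 106 cells, median 2769 UMIs) held Tox in 100% and 93.4% and Havcr2 in 31.2% and 27.4%, and Tox itself was among its 10 leading genes. Its name as CD8 T cell-like was not stable. With coarser sub-clusters, a cluster led by Tox and Atp2b2 (23 and 129 cells) was named conventional CD4 T cell-like.

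**Figure D4:**
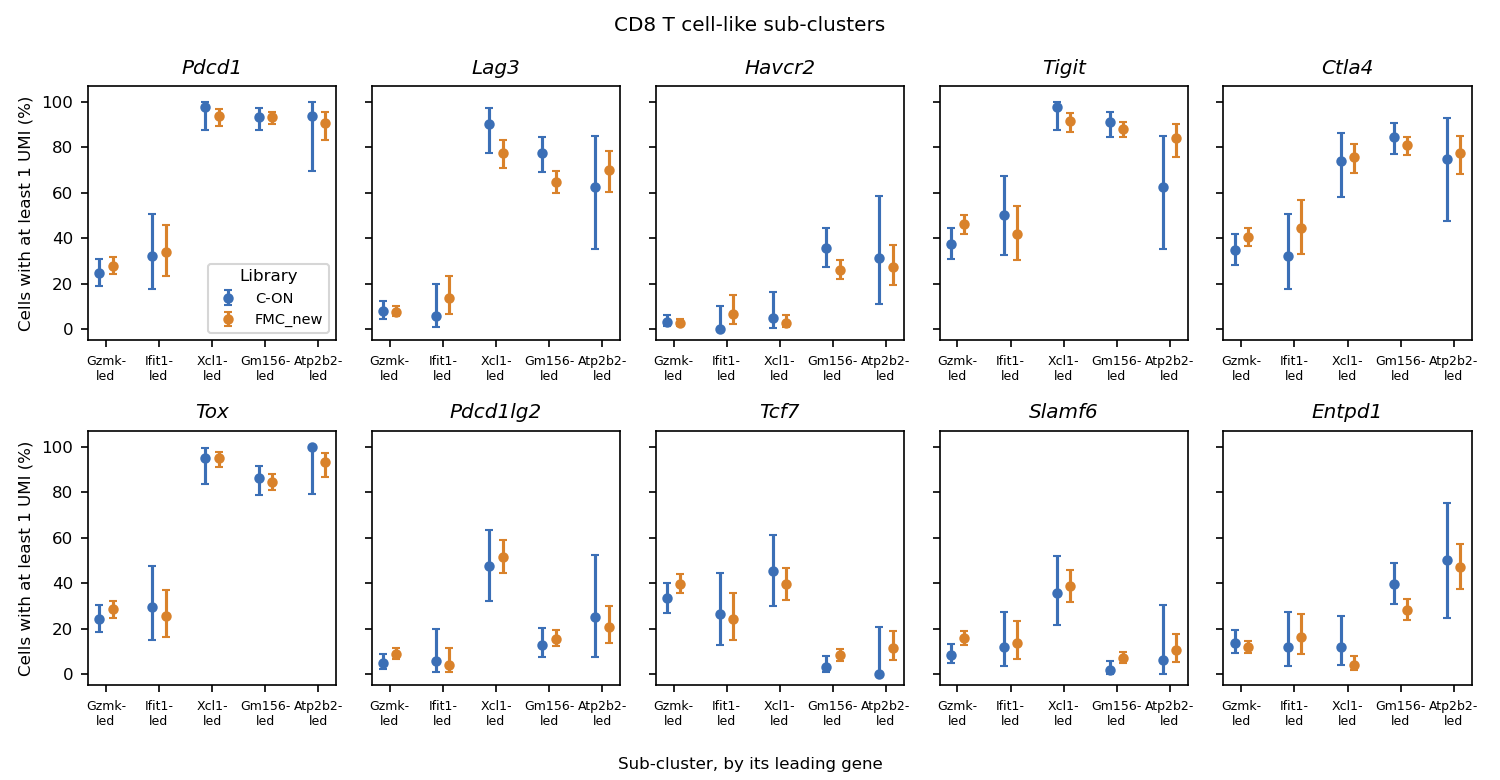
Share of cells (%, vertical axis) with at least 1 UMI of the named genes in the 5 CD8 T cell-like sub-clusters (horizontal axis, by leading gene) of each library, with exact 95% binomial intervals as bars. The Xcl1-led and Gm156-led sub-clusters both exceed 90% for Pdcd1, but Havcr2 lies at 4.76% and 2.60% in the first and at 35.5% and 26.1% in the second.

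The ligand gene Pdcd1lg2 also differed among these sub-clusters. It was found in 47.6% and 51.6% of Xcl1-led CD8 T cell-like cells, against 12.9% and 15.6% of Gm156-led and 4.90% and 8.85% of Gzmk-led cells. Among conventional CD4 T cell-like cells, the sub-cluster led by Tnfsf8, with Slamf6 among its leading genes (59 and 250 cells), carried Pdcd1lg2 in 35.6% and 36.4% and Pdcd1 in 52.5% and 54.8%. The Cd40lg-led sub-cluster (162 and 464 cells) carried Pdcd1 in 19.1% and 24.1% and Lag3 in 1.23% and 4.31%. In the Il10-led sub-cluster (34 and 149 cells), Ctla4 was found in 94.1% and 98.0%, a share like that of the Treg-like class, and Ctla4 was among the 10 leading genes of these cells. Izumo1r and Tnfrsf4 of the Treg marker list were also among these leading genes. The cells were named conventional CD4 T cell-like by 5 of the 6 markers of that list.

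Receptors were found together in single CD8 T cell-like cells. Of the 5 receptors Pdcd1, Ctla4, Lag3, Havcr2 and Tigit, at least 4 had a UMI in 31.0% of these cells in C-ON and 31.5% in FMC_new, and none had one in 23.1% and 13.3%. In conventional CD4 T cell-like cells at least 4 were found in 8.63% and 10.7%, and in Treg-like cells in 21.2% and 19.4%. With each CD8 T cell-like cell thinned to 1000 UMIs, cells with a Pdcd1 UMI carried Lag3 in 29.5% (26.0 to 33.0), against 11.8% (9.99 to 13.9) of cells without. The corresponding shares were 54.8% and 22.8% for Tox, 49.0% and 27.3% for Tigit, 44.9% and 21.7% for Ctla4, and 7.95% and 2.73% for Havcr2, over 679 and 1098 cells of both libraries together. In microglia-like cells, by contrast, thinned cells with and without a Lag3 UMI carried Havcr2 in 11.9% (9.06 to 15.2) and 10.2% (8.39 to 12.1) over both libraries. The libraries went opposite ways: C-ON gave 11.3% with and 18.1% without a Lag3 UMI, FMC_new 12.0% with and 9.17% without. Before thinning the shares were 48.7% and 24.3%, at median depths of 6091 and 2333 UMIs.

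Levels of the 10 genes were then compared between pairs of classes over the 2 libraries with edgeR's quasi-likelihood test, in a fit of 18 classes with the library as a term and p-values adjusted by Benjamini-Hochberg over 14452 genes, all 10 among them. The 10 genes had been left out of the variable features that shaped the clusters, but the classes came from the same cells. Each library pooled its mice, so the p-values do not measure the spread between animals. They rest on a spread estimated from the sums of all 18 classes, not from those of the compared pair alone. In Treg-like against conventional CD4 T cell-like cells, 2 of the 10 genes were called, both higher in Treg-like cells. Of all genes tested, 2.89% were called, 1.62% higher and 1.27% lower. Havcr2 stood at 39.3 CPM and 43.2 CPM in Treg-like cells and 8.24 CPM and 5.69 CPM in the CD4 class, a log2 difference of 2.47 (SE 0.43, adjusted p = 0.0011). Cd80, at 5.62 CPM and 24.1 CPM against 4.71 CPM and 4.98 CPM, differed by 1.75 (SE 0.45, adjusted p = 0.0296), and in C-ON alone this log2 difference was -0.02, so that the call rested on FMC_new. For Ctla4 the log2 difference of 1.36 (SE 0.47) had an adjusted p of 0.142, for Tox it was 1.24 (SE 0.39, adjusted p = 0.0922) and for Tigit 0.88 (SE 0.38, adjusted p = 0.289), all 3 with both libraries in the same direction and each called by 2 of 10 alternative fits. These were the fit without the low-count filter and the fit with only the classes of the pair. The conventional CD4 class held the Il10-led sub-cluster. With coarser sub-clusters the mean Ctla4 level of that class was 615 CPM in place of 815 CPM, and Ctla4 was still not called. The Tox difference turned sign in that setting, to -0.47. The calls of Havcr2 and Cd80 were lost when T cell subsets were set by gates on UMIs of Cd8a, Cd8b1, Cd4, Foxp3 and Trdc, with adjusted p = 0.0827 and 0.294, and with coarser sub-clusters, with adjusted p = 0.411 and 0.936.

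In CD8 T cell-like against conventional CD4 T cell-like cells, 2 of the 10 genes were called higher, where 2.81% of all genes tested were called, 1.49% higher and 1.31% lower. Havcr2, at 55.0 CPM and 50.3 CPM in CD8 T cell-like cells, was higher by 3.07 on the log2 scale (SE 0.38, adjusted p = 6.49e-06), and 9 of 10 alternative fits called it, all but the coarser sub-clusters (adjusted p = 0.22). In that setting a cluster led by Tox and Atp2b2 was named conventional CD4 T cell-like. A Grap2-led cluster, of unresolved subset in the main naming, was named CD8 T cell-like. The part of this renaming in the lost call was not tested. Cd80 was higher by 1.83 (SE 0.40, adjusted p = 0.00612) at 16.4 CPM and 17.9 CPM. This call was lost with the UMI gates (adjusted p = 0.146) and the coarser sub-clusters turned its sign, to -0.06. Cd80 was low in the CD8 and Treg-like classes beside its mean of 277 CPM in migratory dendritic cell-like cells. The part of RNA from other cells in these low Cd80 levels was not tested. Pdcd1, at 670 CPM and 652 CPM against 220 CPM and 269 CPM, differed by 1.45 (SE 0.47, adjusted p = 0.108), and Tox by 1.36 (SE 0.39, adjusted p = 0.0559). Of 10 alternative fits, 3 called Pdcd1, among them the one without the highest Scrublet scores (adjusted p = 0.0435), and 2 called Tox. The coarser sub-clusters turned the sign of the Tox difference, to -0.35.

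NK cell-like cells were lower than CD8 T cell-like cells in 5 of the 10 genes, and 0 were called higher, where 6.05% of all genes tested were called, 3.03% higher and 3.02% lower. Pdcd1, at 68.1 CPM and 53.9 CPM, was lower by -3.77 on the log2 scale (SE 0.57, adjusted p = 5.09e-05) and Lag3, at 64.8 CPM and 49.8 CPM, by -2.60 (SE 0.50, adjusted p = 0.000986). Havcr2 was at 0 in C-ON (0 of 99 cells with a UMI, where a floor of 3 counts corresponds to 3.03%) and 10.4 CPM in FMC_new (6 of 269 cells, adjusted p = 7.12e-05). Cd80 was likewise at 0 and 3.11 CPM (adjusted p = 0.00255) and Cd86 at 0 and 14.5 CPM (adjusted p = 0.0307). The means of these 2 ligand genes in migratory dendritic cell-like cells were 277 CPM and 638 CPM. The part of RNA from other cells in their NK and CD8 T cell-like levels was not tested. Tigit (279 CPM and 274 CPM, log2 difference -1.22, adjusted p = 0.0666) and Tox (418 CPM and 426 CPM, -1.01, adjusted p = 0.152) did not pass the test. The median log2 difference of all genes in this pair was -0.11, and with DESeq2's size factors in place of TMM it was -0.004 and the share of calls that were higher moved from 50.1% to 61.3%. Of the 5 calls, Cd86 was lost under that scaling (-1.93, adjusted p = 0.0601) and with the 10 genes among the variable features (-2.07, adjusted p = 0.232), and Lag3 was lost under the DESeq2 test (-2.35, adjusted p = 0.085).

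Migratory dendritic cell-like cells differed from cDC2-like cells in 6 of the 10 genes, of which 5 were higher and 1 lower, in a pair where 16.9% of all genes tested were called, 6.82% higher and 10.1% lower. Cd274, at 482 CPM and 517 CPM against 53.4 CPM and 109 CPM, was higher by 2.38 on the log2 scale (SE 0.28, adjusted p = 2.71e-07). Pdcd1lg2, at 164 CPM and 135 CPM against 8.75 CPM and 28.3 CPM, was higher by 2.60 (SE 0.42, adjusted p = 4.62e-05), and Cd80, at 303 CPM and 251 CPM against 108 CPM and 121 CPM, by 1.01 (SE 0.24, adjusted p = 0.0037). All 9 alternative fits called these 3 ligand genes higher. Cd86 did not pass, at 765 CPM and 511 CPM against 483 CPM and 460 CPM (log2 difference 0.18, SE 0.36, adjusted p = 0.831). Havcr2 was lower, at 4.97 CPM and 22.5 CPM against 101 CPM and 119 CPM (log2 difference -2.97, adjusted p = 1.47e-05). The median log2 difference of all genes in this pair was -0.22, or -0.04 with DESeq2's size factors, under which the share of calls that were higher was 54.3% in place of 40.4%.

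Ctla4 and Tox were also called higher in migratory dendritic cell-like cells, at low levels and beside T cell markers. Ctla4 was at 14.9 CPM (2 of 26 cells) and 59.2 CPM (9 of 72 cells) against 0.875 CPM and 5.99 CPM (log2 difference 3.04, SE 0.79, adjusted p = 0.00675). Tox was at 54.6 CPM (3 of 26 cells) and 20.4 CPM (5 of 72 cells) against 1.75 CPM and 4.18 CPM (log2 difference 2.99, SE 0.75, adjusted p = 0.00522). In the same cells the 7 T cell markers summed to 223 CPM and 147 CPM, against 3.50 CPM and 34.3 CPM in cDC2-like cells, and 1 of the 7 in C-ON and 2 of the 7 in FMC_new were in at least 10% of migratory dendritic cell-like cells. Their part in both calls was not tested. With coarser sub-clusters neither call held, at a log2 difference of 2.52 for Ctla4 (adjusted p = 0.0542) and 1.32 for Tox (adjusted p = 0.362).

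cDC1-like cells differed from cDC2-like cells in 3 of the 10 genes, of which 1 was higher and 2 lower, in a pair where 11.0% of all genes tested were called, 4.24% higher and 6.72% lower. Havcr2 was higher in cDC1-like cells by 1.36 on the log2 scale (SE 0.25, adjusted p = 0.00028) and was called in all 9 alternative fits. Cd80, at 34.2 CPM and 39.2 CPM against 108 CPM and 121 CPM, was lower by -1.78 (SE 0.25, adjusted p = 1.01e-05), and 8 of 9 alternative fits called it. With the 10 genes and their partners among the variable features the difference was -0.76 (adjusted p = 0.0519). Pdcd1lg2, at 7.33 CPM and 8.75 CPM against 8.75 CPM and 28.3 CPM, was lower by -1.54 (SE 0.50, adjusted p = 0.044), in C-ON alone by -0.35, and 5 of 9 alternative fits called it.

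Microglia-like cells differed from the macrophage-like cells, C1q and border-associated together, in 2 of the 10 genes, both higher, in a pair where 9.21% of all genes tested were called, 4.25% higher and 4.96% lower. Lag3, at 586 CPM and 432 CPM against 11.7 CPM and 35.9 CPM, was higher by 4.24 on the log2 scale (SE 0.46, adjusted p = 2e-07), and all 9 alternative fits called it. Cd274, at 61.3 CPM and 98.3 CPM against 34.5 CPM and 37.4 CPM, was higher by 1.06 (SE 0.28, adjusted p = 0.0114), a call lost only without the library term (adjusted p = 0.114). Havcr2 did not pass, at 131 CPM and 135 CPM against 66.2 CPM and 84.1 CPM (log2 difference 0.71, SE 0.25, adjusted p = 0.0848).

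Within the microglia-like class, Lag3 and Cd274 were unevenly spread over sub-clusters. In the sub-cluster led by Cxcl13, Hcar2 and Il1a (54 and 448 cells), Lag3 was found in 92.6% and 86.8% and Cd274 in 35.2% and 40.0%. In the sub-cluster led by the homeostatic genes P2ry12 and Tmem119 (66 and 265 cells), Lag3 was found in 56.1% and 59.6% and Cd274 in 4.55% and 13.2%. The first was also the deeper, with a median of 7928 UMIs against 5056. Another Cxcl13-led sub-cluster of 22 and 485 cells had a median of 1818 UMIs, and there Lag3 was found in 40.9% and 47.2%.

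A similar split of Cd274 ran through the cDC2-like class. Its sub-cluster led by Ifitm1 and Ccl17 (60 and 348 cells) carried Cd274 in 43.3% and 53.4% and Pdcd1lg2 in 10.0% and 23.6%. The Cd209a-led sub-cluster (102 and 384 cells) carried Cd274 in 6.86% and 13.8% and Pdcd1lg2 in 0.98% and 1.04%. Their median depths were 8689 and 6835 UMIs.

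Cd274 in oligodendrocyte-like cells was concentrated in a single cluster. The Serpina3n-led cluster (810 and 823 cells), with the complement gene C4b and the alarmin Il33 among its leading genes, carried Cd274 in 43.8% (40.4 to 47.3) of C-ON cells and 34.6% (31.4 to 38.0) of FMC_new cells, at 143 CPM and 110 CPM. The other 4 oligodendrocyte-like clusters carried it in 0.475% to 0.856% of C-ON cells and in 2.05% to 9.19% of FMC_new cells. Irf1, a transcription factor induced by interferon, was found in 43.7% and 48.8% of the Serpina3n-led cells, against 1.33% to 2.14% and 5.46% to 16.2% in the other clusters. Ifngr1, a subunit of the interferon-gamma receptor, was in 15.2% and 19.1% against 7.79% to 14.1% and 10.2% to 15.1%. Jak2, a kinase of the same receptor, did not follow this order, at 47.7% and 48.7% in the Serpina3n-led cells and 69.7% and 71.4% in the Ctnna3-led cells. The Serpina3n-led cells had a median of 8684 UMIs. Oligodendrocyte-like cells as a whole held 43.8% of all Cd274 UMIs of C-ON and 12.3% of those of FMC_new.

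**Figure D5:**
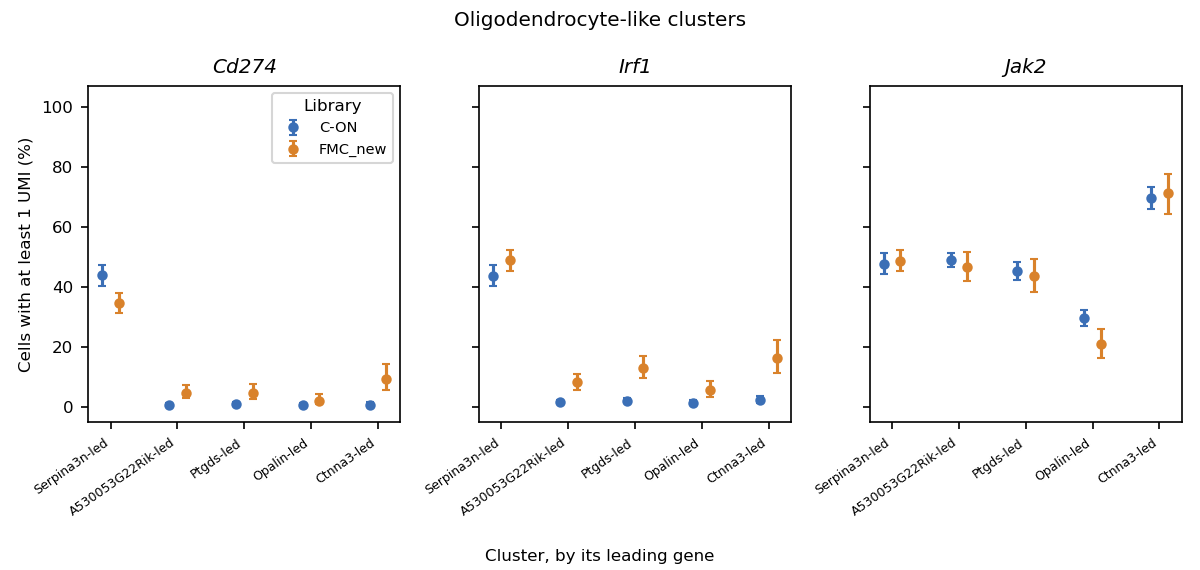
Share of cells (%, vertical axis) with at least 1 UMI of Cd274, Irf1 and Jak2 in the 5 oligodendrocyte-like clusters (horizontal axis, by leading gene) of each library, with exact 95% binomial intervals as bars. Cd274 stands at 43.8% and 34.6% in the Serpina3n-led cluster and at 9.19% or less in the others.

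The glioma-like cells were in 2 clusters. The order of their Cd274 shares differed between the libraries, on only 48 Gpr17-led cells in C-ON, and that of their Tox shares did not. The Cspg5-led cluster, with Pdgfra second (166 and 856 cells), carried Cd274 in 6.63% and 17.5% and Tox in 40.4% and 43.2%. The Gpr17-led cluster (48 and 539 cells), at a median of 2476 UMIs against 6093, carried Cd274 in 16.7% and 9.28% and Tox in 27.1% and 22.8%. A cluster of cycling cells, which stayed unnamed (46 and 293 cells), carried Cd274 in 41.3% and 31.1% and Tox in 41.3% and 53.6%. These shares are not those of glioma-like cells, since the lineage of the cluster was not resolved. When naming was repeated beside coarser sub-clusters, its second marker list was that of Tregs, with 4 of 7 markers.

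Other genes of these pathways were read from 5 lists of partner genes. Of all genes tested, 2.89% were called for Treg-like and 2.81% for CD8 against conventional CD4 T cell-like cells. The shares were 6.05% for NK against CD8, 16.9% for migratory and 11.0% for type 1 against type 2 dendritic, and 9.21% for microglia-like against macrophage-like cells. The lists are short, so a count of 0 beside such shares is not read as a result about them. Among 14 tested ligands and competing receptors, 0 were called between Treg-like and conventional CD4 T cell-like cells and 0 between CD8 and conventional CD4 T cell-like cells. In NK cell-like cells 2 were lower than in CD8 T cell-like cells, Cd28 (64.8 CPM and 93.3 CPM against 224 CPM and 178 CPM, log2 difference -1.55, adjusted p = 0.0097) and Cd96 (-1.15, adjusted p = 0.0113). In migratory dendritic cell-like cells 2 were higher and 5 lower than in cDC2-like cells, the first with Nectin2, a ligand of Tigit (2.43, adjusted p = 0.0142), and the T cell gene Icos (24.8 CPM and 59.2 CPM against 0.875 CPM and 6.90 CPM, 2.96, adjusted p = 0.00135), which stood beside the T cell markers given above for Ctla4 and Tox, and the second with the class II gene H2-Ab1 at 3093 CPM and 3620 CPM against 13087 CPM and 12943 CPM (-2.25, adjusted p = 0.00218). Nectin2 was also higher in microglia-like than in macrophage-like cells, at 69.1 CPM and 49.5 CPM against 8.28 CPM and 8.24 CPM (2.68, adjusted p = 1.15e-07).

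Of 14 tested other inhibitory receptors and ligands, 4 were higher and 1 lower in CD8 than in conventional CD4 T cell-like cells. Those named were Klrc1, the NKG2A receptor chain (253 CPM and 256 CPM against 34.1 CPM and 25.3 CPM, log2 difference 3.19, adjusted p = 7.58e-07), Cd160 (3.18, adjusted p = 1.41e-06) and Cd244a (13.9 CPM and 27.3 CPM against 0 and 2.14 CPM, adjusted p = 2.3e-05). In Treg-like cells 2 were higher than in conventional CD4 T cell-like cells, Klrg1 (3.15, adjusted p = 0.00603) and Cd200r1 (1.70, adjusted p = 0.00564). Cd200, a ligand that restrains myeloid cells, was higher in migratory than in type 2 dendritic cell-like cells, at 506 CPM and 366 CPM against 0.875 CPM and 7.08 CPM (adjusted p = 1.1e-12), and Cd244a was at 0 in both libraries of the first against 68.2 CPM and 81.9 CPM in the second.

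Of 14 exhaustion and memory factors, 2 were higher and 4 lower in CD8 than in conventional CD4 T cell-like cells, with Eomes higher (61.3 CPM and 45.8 CPM against 1.18 CPM and 3.92 CPM, log2 difference 4.03, adjusted p = 2.29e-06), Nr4a2 higher (1.85, adjusted p = 0.00466) and Slamf6 lower (-1.78, adjusted p = 0.000399). Eomes also belongs to the marker list used to name the CD8 class, so its difference is no independent result. In Treg-like cells 3 were lower than in conventional CD4 T cell-like cells, Tcf7 (-1.83, adjusted p = 0.000453), Id3 (-2.56, adjusted p = 0.00732) and Slamf6 (-1.22, adjusted p = 0.0318). In NK cell-like cells 4 were lower than in CD8 T cell-like cells, among them Batf (-1.77, adjusted p = 0.0143), Entpd1 (-1.93, adjusted p = 0.00368) and Tox2, which was at 0 and 4.15 CPM against 23.4 CPM and 29.4 CPM (adjusted p = 0.00338).

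Of 12 receptor-proximal signaling genes, at most 2 were called in any pair but that of migratory and type 2 dendritic cell-like cells, where 1 was higher, Cblb, a ubiquitin ligase that restrains T cell activation (447 CPM and 388 CPM against 54.2 CPM and 42.5 CPM, 2.89, adjusted p = 3.37e-09), and 5 were lower. Of the 10 inducers of Cd274, 0 were called between microglia-like and macrophage-like cells and 0 between NK and CD8 T cell-like cells. In migratory dendritic cell-like cells 1 was higher, Jak2 (526 CPM and 564 CPM against 269 CPM and 303 CPM, 0.69, adjusted p = 0.0358), and 1 lower, Ifngr1 (69.5 CPM and 149 CPM against 425 CPM and 411 CPM, -2.15, adjusted p = 1.5e-05). In cDC1-like cells 3 were lower than in cDC2-like cells, Irf1, Nfkb1 and Rela (-1.52, -1.42 and -1.06, adjusted p = 0.00298, 0.000125 and 0.00162).

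Over 38 sums of a class in a library, the genes whose log2(CPM + 1) ran most like that of each of the 10, among 15714 genes, were these, given as a description since the sums share 2 libraries and the lineages of the cells. Pdcd1 was most like Zap70, a kinase of the T cell receptor (Pearson's r = 0.95), Icos and Lime1, and Ctla4 was most like Icos (r = 0.95), Cd3e and Lat. Tigit was most like Nkg7 (r = 0.93), Sh2d1a and Gimap7, and Tox most like Lck (r = 0.94), Zap70 and Lat. Pdcd1lg2 was most like Stat4 (r = 0.92), Pkp3 and Tespa1. Cd274 was most like Gm36043 (r = 0.82), Relb and Ly75, Cd80 most like A530040E14Rik (r = 0.86), Ifi30 and Cyb561a3, and Cd86 most like Ifi30 (r = 0.90), Pld4 and Cd83. The lowest of the 10 leading values was that of Lag3, with Cst7 (r = 0.71) next to it. Havcr2 was most like Smim3 (r = 0.85), Tnfsf13b and Slamf8.

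By the mean level of both libraries, the highest class of 8 of the 10 genes was the same under all 9 alternatives tried, and those of Cd86 and Tox changed. Cd86 was highest in cDC1-like cells by the share with at least 2 UMIs (84.5%) and in C1q macrophage-like cells after thinning (659 CPM). Tox was highest in CD8 T cell-like cells under the UMI gates (738 CPM) and in conventional CD4 T cell-like cells with coarser sub-clusters (764 CPM). Annotated neighbors overlap 4 of the genes: AC119228.1 lies across Cd274, A930007I19Rik across Pdcd1lg2 and Gm11802 across Tox on the opposite strand, and Rpl18-ps1 across Ctla4 on the same strand, and since the sources used here do not say how strand entered the counting, their reads cannot be told apart from those of the 4 genes.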

How the data were processed

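Single-cell RNA was measured in 2 libraries of pooled optic nerves, and the authors deposited raw UMI counts per gene and barcode. Per the file headers these counts came from Cell Ranger 7.2.0 and, per the study's methods, from the mm10 reference. No normalized values were used. C-ON held 10845 barcodes and 85101211 UMIs, and FMC_new 21341 barcodes and 129113325 UMIs. Following the study's filters, cells with 500 to 5000 genes, 500 to 20000 UMIs and at most 5% mitochondrial UMIs were kept, which left 81.5% and 78.8% of barcodes.

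Cells were clustered with Seurat 5.3.0 (2000 variable features without the 10 genes and their partners, 30 components, resolution 0.8, sub-clusters at 1). Of 65 clusters, 45 were named from marker lists, each needing at least 3 markers in at least 20% of its cells at a fold of at least 2 over the mean of clusters. These naming thresholds were set after the clusters had been seen. The automatic threshold of Scrublet marked 1 cell and 0 cells, so no doublets were removed, and removal of the 766 and 2871 highest scores was added as an alternative after seeing the data, as was removal of shared barcodes.

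UMIs were summed per class and library. Classes with at least 20 cells in both libraries entered edgeR 4.0.16 (TMM, quasi-likelihood test, library as a term, 36 sums, adjusted p threshold 0.05). DESeq2 1.42.0 was run as an alternative. The fit was tested on data simulated from its own means and spread. Changes of 2-fold were recovered in 13% (migratory against type 2 dendritic cell-like) to 40% (microglia-like against macrophage-like) of changed genes. Changes of 4-fold were recovered in 56% to 90% in the same pairs. Among calls, 3.1% (CD8 against conventional CD4) to 9.2% (migratory against type 2 dendritic cell-like) were false. A difference that did not pass is therefore not shown to be absent. The libraries carry replicate numbers 1 and 2, which here name the libraries themselves, so classes of one library are paired by origin. The 10 genes and the partner lists were chosen with earlier results of these data known. At most 3 called genes of each partner list, those with the largest change, were named per comparison, and sub-clusters were named by their leading gene. Likeness used genes reaching 10 CPM in a class sum and a pseudocount of 1. Some partner and likeness values are not reported here. Other settings tried are given at the end.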

Additional observations from a re-analysis of the deposited data

How the results depend on the processing

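The number of genes called moved by over 1.5 times in these cases. Without the library term (no replicate block), in which the pairing of classes by library is dropped, it was 119 in place of 418 for Treg-like against conventional CD4 T cell-like cells, 215 in place of 406 for CD8 against conventional CD4, and 541 in place of 875 for NK against CD8 T cell-like cells. With only the classes of the contrast in the fit, it was 1563, 1353 and 1957 for these pairs and 2734 in place of 1331 for microglia-like against macrophage-like cells. With sub-clusters at resolution 0.6 it was 252 and 189 for the first and second pair, and with UMI gates 156 for the first. With DESeq2's size factors, 70.5% in place of 56.0% of the calls for the first pair were higher. The number of the 10 genes that kept their highest class was 9 with at least 2 UMIs, 9 after thinning, 9 with UMI gates, 8 at resolution 0.6 and 9 without either replicate. Differences that turned sign were, for Treg-like against conventional CD4, Pdcd1 (-0.26) and Cd274 (-0.38) with UMI gates, Tox (-0.47) at resolution 0.6 and Cd80 (-0.020 without replicate 2, 1.92 without replicate 1). For CD8 against conventional CD4 they were Cd80 (-0.056) and Tox (-0.35) at resolution 0.6. For microglia-like against macrophage-like cells they were Pdcd1lg2 (-0.25) with DESeq2, Ctla4 (0.0097) without the low-count filter and Tox (-0.13) with the 10 genes among the variable features. The 20 calls among the 10 genes were refitted 188 times, of which 166 kept the call, 21 lost it and 1 turned sign. The 40 differences not called were refitted 377 times, of which 37 passed. Without the library term the calls of Cd80 for Treg-like (adjusted p = 0.143) and CD8 T cell-like cells (0.0567), Cd86 in NK cell-like cells (0.0728), Ctla4 in migratory dendritic cell-like cells (0.0623), Cd274 in microglia-like cells (0.114) and Pdcd1lg2 in cDC1-like cells (0.261) were lost. The cause of these shifts was not tested. With 1 library left out no test remained, so only levels and differences were recomputed.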
